A study of Homo sapiens with 12 samples.

Results

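The genes described here are 7 genes of the kinase cascade that dabrafenib targets: NRAS and HRAS, which encode RAS proteins, BRAF and ARAF, which encode RAF kinases, MAP2K1 and MAP2K2, which encode the kinases MEK1 and MEK2, and MAPK3, which encodes ERK1. They were taken as a list of symbols, with earlier results of these data known, and make up 7 of the 33694 human genes listed. Their transcripts were counted in A375, an established human melanoma line that carries an activated BRAF, and in A375-BIR, named in the labels as resistant to BRAF inhibitors. How A375-BIR was derived, and whether it was kept in drug, is not given in the labels. The groups were A375-BIR with dabrafenib (3 libraries), A375-BIR with the solvent DMSO (3 libraries), A375 with dabrafenib (3 libraries) and A375 with DMSO (1 library used). Dabrafenib, an inhibitor of mutant BRAF, was given at 200 nM for 48 h, DMSO was used at 0.1%, and both lines grew in RPMI medium with 10% serum. The labels call the libraries of a group biological replicates. QuantSeq FWD libraries, which read a tag near the 3′ end of each polyadenylated transcript, were made from total RNA.

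RAS proteins are membrane-bound switches that bind GTP after growth factor receptors are activated and then recruit RAF kinases. RAF kinases phosphorylate MEK1 and MEK2, which phosphorylate the ERK kinases, and active ERK drives a program of growth genes together with its own inhibitors. In melanomas with mutant BRAF the cascade runs without RAS input, and RAF dimers, RAS mutation and MEK mutation are known routes of resistance to BRAF inhibitors. Transcript levels report neither mutation nor phosphorylation.

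MAP2K1 and MAP2K2 were the 2 members that passed the test between the lines under the drug, and their promoters are shown for that reason. The RefSeq sequences (GRCh38.p14, 250 bases before to 50 after the start) are chr15:66386662-66386961 on the plus strand for MAP2K1 and chr19:4124073-4124372 on the minus strand for MAP2K2, each written 5′ to 3′ with motif matches in capitals.
MAP2K1: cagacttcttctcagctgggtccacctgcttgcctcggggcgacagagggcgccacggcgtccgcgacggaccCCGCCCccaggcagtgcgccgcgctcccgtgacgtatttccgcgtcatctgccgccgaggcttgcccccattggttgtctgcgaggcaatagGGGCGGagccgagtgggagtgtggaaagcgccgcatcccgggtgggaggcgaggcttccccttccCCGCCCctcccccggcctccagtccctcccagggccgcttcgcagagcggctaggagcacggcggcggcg
MAP2K2: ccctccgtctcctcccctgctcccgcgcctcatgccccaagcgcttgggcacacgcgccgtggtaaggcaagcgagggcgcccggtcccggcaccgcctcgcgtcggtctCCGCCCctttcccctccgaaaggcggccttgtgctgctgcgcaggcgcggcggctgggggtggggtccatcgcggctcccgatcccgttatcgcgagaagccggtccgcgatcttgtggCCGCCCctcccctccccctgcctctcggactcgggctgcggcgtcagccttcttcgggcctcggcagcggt
The motifs searched, on both strands, were the GC box GGGCGG, the ETS core CCGGAA, the AP-1 site TGACTCA, the E-box CACGTG and the TATA box TATAAA. No match in the members' promoters overlaps one of another motif. All capitals in both sequences are GC boxes, 3 in the MAP2K1 promoter and 2 in the MAP2K2 promoter. Both are GC-rich, at 72.0% for MAP2K1 and 73.7% for MAP2K2, against a median of 58.7% over 35116 promoters. A GC box was present in 5 of the 7 members' promoters and in 45.0% of all promoters, and an ETS core in 3 of the 7 (ARAF, HRAS, NRAS) and in 17.2% of all. The E-box was in 2 of 7 (MAPK3 and NRAS) and 7.26% of all, and the AP-1 site and the TATA box were in 0 of 7, against 4.95% and 11.5% of all. A match of letters is a description of the window and shows no binding.

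The 10 libraries held 198690 to 1999840 gene counts with a median of 570083, of which the 7 members took 51 to 537 counts (0.0211% to 0.0269%). The limit set by a count of 0 (3 counts of the raw total) ran between 1.5 and 15.1 CPM, the unit of counts scaled to a common library total. The members were therefore measured by few reads. The A375 DMSO group is 1 library, because the files of its replicates 2 and 3 list mouse genes. The stamp of its sequencing run is not that of the 9 remaining libraries, and wherever it enters the run cannot be told apart from the group. In it 15.1% of gene counts were mitochondrial, against 4.63% to 7.21% in the A375-BIR libraries and 10.7% to 15.1% where A375 received dabrafenib, and 52.5% of its reads aligned to several places, against 40.0% to 49.4% in the others. The 8 melanocyte markers, on raw totals, summed to 212 to 321 CPM in A375-BIR with dabrafenib and 207 to 224 in A375-BIR with DMSO. Their sums were 2537 to 3318 in A375 with dabrafenib and 1148 in A375 with DMSO. MLANA and TYR were at 0 in all 6 A375-BIR libraries. MLANA was also at 0 in the A375 DMSO library and in A375 dabrafenib replicates 1 and 3. Markers of fibroblasts summed to at most 30.4 CPM, and those of epithelium, leukocytes or endothelium to at most 10.1 CPM, in any library. All 7 members passed the filter on low counts, but ARAF and HRAS, which were high in the A375 DMSO library, were not tested when the 9 remaining libraries were fitted without it. The filter asks for as many libraries over its threshold as the smallest group holds, 1 with A375 DMSO and 3 without it. In a fit of only the A375-BIR groups ARAF was tested and not called (log2 change 0.56), and HRAS was not tested.

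**Figure D1:**
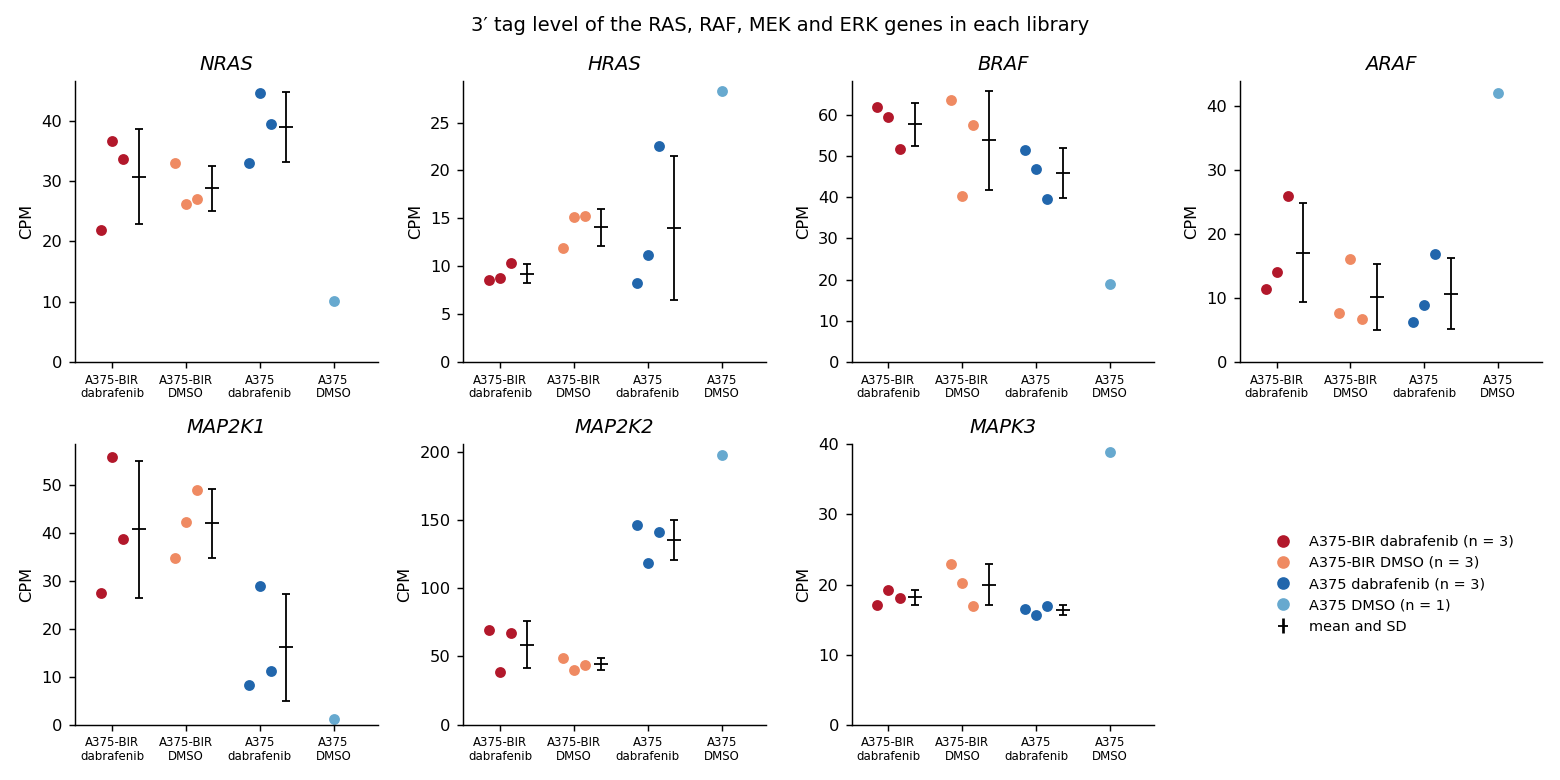
Level of each of the 7 genes in every library, in CPM on TMM-scaled totals (y axis, from 0), by group (x axis); points are libraries and bars give the mean and SD of 3 libraries. The single A375 DMSO point lies outside the other 9 for every gene: it is lowest for NRAS, BRAF and MAP2K1 and highest for HRAS, ARAF, MAP2K2 and MAPK3.

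NRAS lies on chromosome 1 (114704469 to 114716894, minus strand, GENCODE 29 on GRCh38) and is the RAS gene most often mutated in melanoma. Its level was 21.9, 36.7 and 33.6 CPM in A375-BIR with dabrafenib and 33.0, 26.2 and 27.1 CPM in A375-BIR with DMSO. The A375 levels were 33.0, 44.6 and 39.5 CPM with dabrafenib and 10.05 CPM with DMSO, where 16 counts give a 95% counting interval of 5.74 to 16.3 CPM. The 3 groups with replicates overlap each other, and the A375 DMSO library lies below all of them. Between A375-BIR libraries NRAS did not pass the test (log2 change with dabrafenib -0.01 ± 0.28 SE, 95% interval -0.57 to 0.55), and its sign changed when single libraries were left out. For the lines in dabrafenib the log2 difference was -0.42 ± 0.32 (95% interval -1.07 to 0.23) and not called.

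HRAS is on chromosome 11 (532242 to 537287, minus strand) and was the member with the fewest reads in A375-BIR with dabrafenib, 18 counts in all. It stood at 8.57, 8.75 and 10.4 CPM in A375-BIR with dabrafenib and at 11.9, 15.1 and 15.2 CPM in A375-BIR with DMSO. Every dabrafenib library was thus below every DMSO library, yet the log2 change of -0.61 ± 0.42 (95% interval -1.47 to 0.24) did not pass the test (edgeR quasi-likelihood with Benjamini-Hochberg adjustment, adjusted p = 0.559). Groups that do not overlap were seen for 17.97% of all genes tested in that comparison. The A375 values were 8.25, 11.2 and 22.6 CPM with dabrafenib and 28.3 CPM with DMSO (45 counts, 95% counting interval 20.6 to 37.8). A375 dabrafenib replicate 3, at 4 counts, was the highest of its group on the CPM scale. In dabrafenib the lines overlapped (log2 difference -0.39 ± 0.53, 95% interval -1.47 to 0.69).

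BRAF, the drug target, is on chromosome 7 (140719327 to 140924928, minus strand), and NDUFB2 overlaps its 3′ end on the other strand. It had 61.9, 59.5 and 51.8 CPM in A375-BIR with dabrafenib and 63.6, 40.3 and 57.6 CPM in A375-BIR with DMSO. A375 had 51.6, 46.9 and 39.5 CPM with dabrafenib and 18.8 CPM with DMSO (30 counts, 95% counting interval 12.7 to 26.9). All 3 A375-BIR dabrafenib libraries were above the A375 dabrafenib libraries, by a margin of under 1 CPM at the closest pair, and the log2 difference of 0.31 (95% interval -0.24 to 0.85) was not called. The response in A375-BIR had a 95% interval of -0.33 to 0.58 on the log2 scale.

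ARAF, a RAF kinase of lower basal activity that can dimerise with other RAF proteins, is on the X chromosome (47561100 to 47571920, plus strand), with SYN1 on the other strand over its 3′ end. It had 11.4, 13.995 and 25.9 CPM in A375-BIR with dabrafenib and 7.63, 16.1 and 6.77 CPM in A375-BIR with DMSO. With 8 to 12 counts per library in the first of these groups and 4 to 16 in the second, the groups overlapped (log2 change 0.53 ± 0.42, 95% interval -0.32 to 1.39, not called). A375 had 6.19, 8.93 and 16.9 CPM with dabrafenib, from 3, 4 and 3 counts, and 42.1 CPM with DMSO, from 67 counts (95% counting interval 32.6 to 53.4). The lines in dabrafenib overlapped too (log2 difference 0.74 ± 0.55, 95% interval -0.37 to 1.85, not called). Whether the counts of BRAF, ARAF or MAP2K1 hold reads of the gene on the other strand cannot be told, since the strand setting of the counting is not given in the sources used here.

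MAP2K1 is on chromosome 15 (66386817 to 66492312, plus strand), with SNAPC5 on the other strand over its 3′ end. Its level was 27.6, 56.0 and 38.8 CPM in A375-BIR with dabrafenib and 34.7, 42.3 and 49.1 CPM in A375-BIR with DMSO. It was 8.25, 29.01 and 11.3 CPM in A375 with dabrafenib, from 4, 13 and 2 counts, and 1.26 CPM in A375 with DMSO, from 2 counts (95% counting interval 0.152 to 4.54). MAP2K1 was thus higher in A375-BIR than in A375 with either treatment, although in dabrafenib the highest A375 library lay just above the lowest A375-BIR library. In dabrafenib MAP2K1 was higher in A375-BIR by a log2 difference of 1.18 ± 0.41 (95% interval 0.35 to 2.01, edgeR adjusted p = 0.0185). The call was lost without A375-BIR dabrafenib replicate 2 (0.85, adjusted p = 0.0928) or A375 dabrafenib replicate 1 (0.72, adjusted p = 0.227) and by DESeq2 (1.28, adjusted p = 0.0605), and without A375 dabrafenib replicate 2 the difference was 2.07. In A375-BIR dabrafenib made no called difference (log2 change -0.08 ± 0.28, 95% interval -0.65 to 0.50).

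MAP2K2 is on chromosome 19 (4090321 to 4124129, minus strand), with no listed gene overlapping it, and was the member with the most reads. Its level was 69.5, 38.5 and 67.3 CPM in A375-BIR with dabrafenib and 49.1, 40.3 and 44.0 CPM in A375-BIR with DMSO. A375 had 146, 118 and 141 CPM with dabrafenib and 198 CPM with DMSO (315 counts, 95% counting interval 177 to 221). Every A375 library was above every A375-BIR library, whichever the treatment. In dabrafenib MAP2K2 was lower in A375-BIR, with a log2 difference of -1.18 ± 0.23 (95% interval -1.64 to -0.72, edgeR adjusted p = 5.89e-05), and it stayed called in each of the 6 fits that left out 1 library (-1.40 to -0.96). In A375-BIR the response of 0.40 ± 0.23 (95% interval -0.07 to 0.87) was not called.

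MAPK3, the ERK1 gene, is on chromosome 16 (30114105 to 30123506, minus strand), also with no listed gene overlapping it. Its values varied least of the members', at 17.1, 19.2 and 18.1 CPM in A375-BIR with dabrafenib and 22.9, 20.2 and 16.9 CPM in A375-BIR with DMSO. A375 had 16.5, 15.6 and 16.9 CPM with dabrafenib and 38.9 CPM with DMSO (62 counts, 95% counting interval 29.8 to 49.9). Both lines in dabrafenib sat within a narrow band, with all A375-BIR libraries just above the A375 libraries and a log2 difference of 0.15 ± 0.41 (95% interval -0.68 to 0.98, not called). That band is narrower than the counting error. In dabrafenib, the 36 summed counts in A375-BIR give a 95% counting interval of 12.6 to 24.8 CPM, and the 18 in A375 one of 9.61 to 25.6 CPM. In A375-BIR its response was -0.19 ± 0.32 (95% interval -0.83 to 0.46, not called).

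Counted over the members, the response of A375-BIR to dabrafenib called 0 of 7 at an adjusted p under 0.05 by edgeR, against 2.46% of all 10236 genes tested. At an unadjusted p under 0.05 it was also 0 of 7, against 14.2% of all genes. DESeq2 called 0 of the 2 members to which it gave an adjusted p, BRAF and MAP2K2. The members' median log2 change was -0.0075 and that of all genes 0.018. The A375-BIR dabrafenib libraries differed most from each other, at a chi-squared per degree of freedom of 4.26 to 4.89 for pairs of libraries. It was 1.29 to 1.74 in A375-BIR with DMSO and 1.09 to 2.45 in A375 with dabrafenib. Without A375-BIR dabrafenib replicate 2, 558 genes were called, against 252 with it. The members called stayed at 0, with MAP2K2 at 0.62 (edgeR adjusted p = 0.0912). Between the lines in dabrafenib 2 of 7 were called, MAP2K1 higher and MAP2K2 lower in A375-BIR, against 42.7% of all genes (22.6% higher and 20.2% lower). With 7 members, a share of 28.6% is near that background. Without the A375 DMSO library in the fit the same pair was called, of 5 members tested, with log2 differences of 1.15 for MAP2K1 and -1.21 for MAP2K2. BRAF, MAP2K2 and MAPK3 did not overlap between the lines in dabrafenib, as did not 48.2% of all genes.

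**Figure D2:**
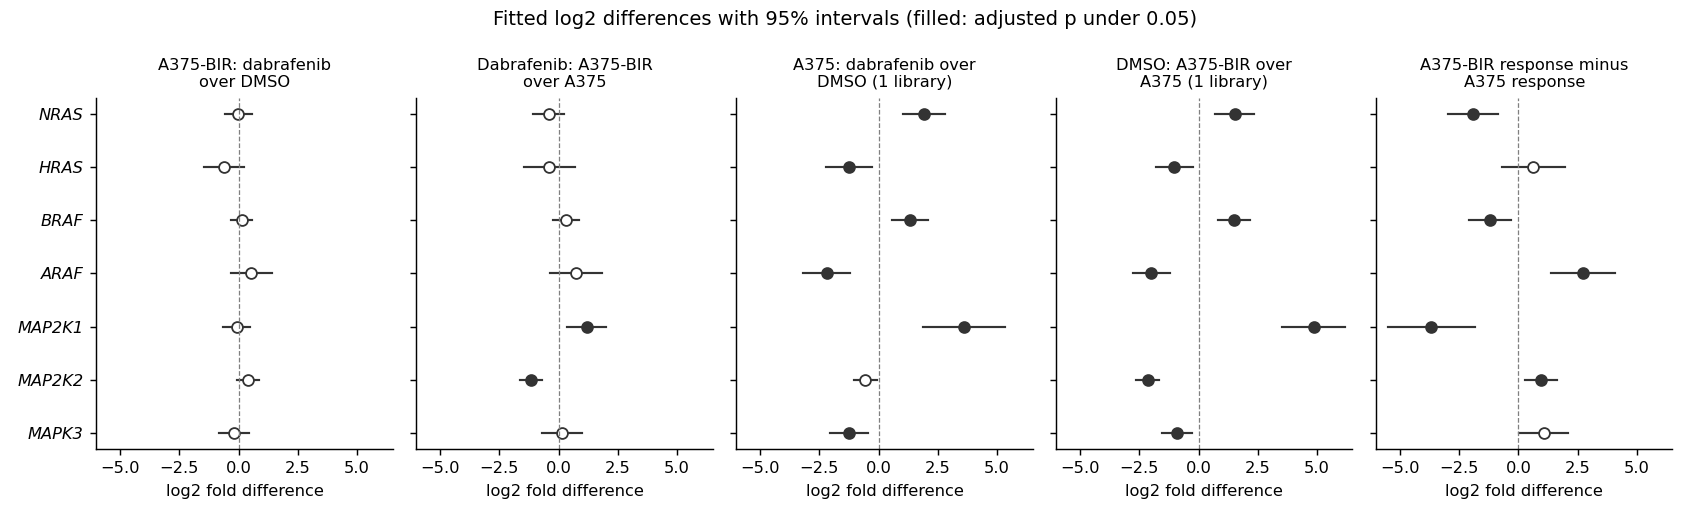
Log2 difference of each of the 7 genes in 5 comparisons (x axis) with its 95% interval, filled where called at an adjusted p under 0.05 and open otherwise. All 7 intervals of the A375-BIR response include 0, MAP2K1 and MAP2K2 lie on opposite sides of 0 between the lines in dabrafenib, and the comparisons with the single A375 DMSO library have the most filled points.

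The balance within paralogue pairs does not depend on how libraries are scaled. MAP2K1 took 38.6% of the reads of the MEK pair in A375-BIR with dabrafenib (exact 95% interval 31.7 to 45.8), 47.5% in A375-BIR with DMSO (40.9 to 54.0), 11.3% in A375 with dabrafenib (6.95 to 17.1) and 0.631% in A375 with DMSO (0.0765 to 2.26). These intervals are on reads summed over a group and cover counting error only, not the spread between libraries. By library, the log2 count ratio of MAP2K1 to MAP2K2 was -1.33, 0.54 and -0.79 in A375-BIR with dabrafenib, against -4.15, -2.03 and -3.64 in A375 with dabrafenib. The ranges do not overlap. The difference of 2.75 has p = 0.1 by an exact two-sided permutation test, the smallest that 3 against 3 allows, and 0.6 adjusted over the 6 ratio tests. In A375-BIR with DMSO the same ratio was -0.50, 0.07 and 0.16, which overlaps the dabrafenib libraries of that line (difference -0.44, exact permutation p = 0.6).

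NRAS exceeded HRAS in every library of the shared run, with a mean log2 count ratio of 1.71 ± 0.36 in A375-BIR with dabrafenib, 1.03 ± 0.39 in A375-BIR with DMSO and 1.60 ± 0.69 in A375 with dabrafenib (SD, n = 3). In the A375 DMSO library HRAS exceeded NRAS, with a ratio of -1.49. BRAF likewise exceeded ARAF in the 9 libraries, at 1.84 ± 0.75 in A375-BIR with dabrafenib, 2.49 ± 1.01 in A375-BIR with DMSO and 2.22 ± 0.93 in A375 with dabrafenib (SD, n = 3), and ARAF exceeded BRAF in the A375 DMSO library, at -1.16. These ratios set tags of different transcripts side by side and are read only across libraries. HRAS, ARAF and MAP2K2 each had a higher GC content in the last 500 transcript bases than the other gene of the pair. Over all genes, differences from the A375 DMSO library went with GC content, as given below. The part of that trend in the ratios was not tested. None of the other 4 tests had a p under 0.05, which 3 against 3 cannot reach: the differences for NRAS to HRAS were 0.67 in the A375-BIR response (exact permutation p = 0.2) and 0.11 between the lines in dabrafenib (exact permutation p = 0.8). For BRAF to ARAF they were -0.65 (exact permutation p = 0.5) and -0.38 (exact permutation p = 0.6).

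**Figure D3:**
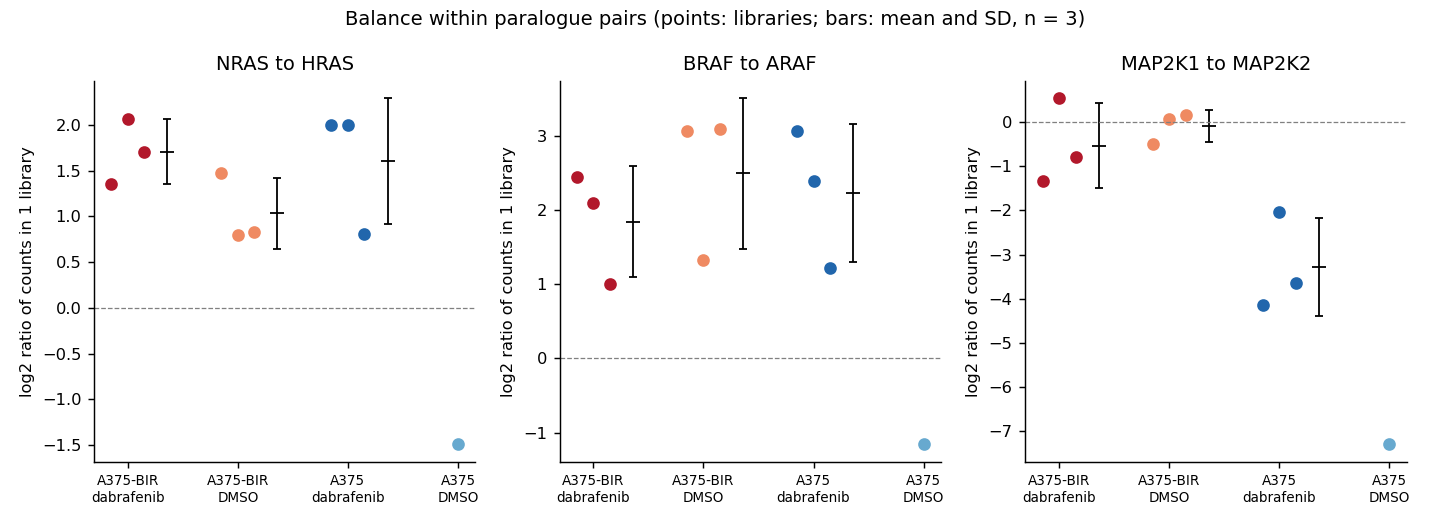
Log2 ratio of the counts of 2 paralogues in each library (y axis) by group (x axis), with the mean and SD of 3 libraries as bars. The MAP2K1 to MAP2K2 ratio is at or below -2.03 in A375 with dabrafenib and at or above -1.33 in A375-BIR, and the A375 DMSO library is the lowest point of each panel.

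In A375 the response to dabrafenib called 6 of 7 members, 3 higher and 3 lower, against 38.6% of all genes (17.9% higher and 20.7% lower). Each of these values rests on the single DMSO library of the other run. ARAF and HRAS were high in that library and were not tested in the fit without it. Of the other 5 members 4 were called, 3 higher and 1 lower. With no filter on low counts ARAF (-2.27) and HRAS (-1.33) were called too. NRAS (log2 change 1.93 ± 0.44, edgeR adjusted p = 0.000585), BRAF (1.33 ± 0.37, adjusted p = 0.00459) and MAP2K1 rose. MAP2K1, at 19 counts in dabrafenib and 2 in DMSO, had a ratio of 13.6 with a 95% counting interval of 3.29 to 121. ARAF (-2.19 ± 0.50, adjusted p = 0.000607), HRAS (-1.24 ± 0.47, adjusted p = 0.0349) and MAPK3 (-1.25 ± 0.39, adjusted p = 0.0108) fell, and MAP2K2 was not called (-0.56 ± 0.24, adjusted p = 0.0683). HRAS lost its call without A375 dabrafenib replicate 1 (-0.95, adjusted p = 0.190) or 2 (-1.18, adjusted p = 0.113), and HRAS and MAPK3 lost theirs by DESeq2 (adjusted p = 0.273 and 0.139).

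Between the lines in DMSO all 7 members were called, 3 higher and 4 lower in A375-BIR, against 51.8% of all genes (25.1% higher and 26.7% lower). Without ARAF and HRAS, high in the A375 DMSO library and not tested in the fit without it, it was 5 of 5, 3 higher and 2 lower. With no filter ARAF (-2.01) and HRAS (-1.05) were also called. BRAF (1.51 ± 0.33) and NRAS (1.52 ± 0.41) were higher in A375-BIR on the log2 scale. MAP2K1 was higher as well, at 112 counts against 2, a ratio of 32.3 with a 95% counting interval of 8.73 to 269.8. MAP2K2 (-2.14 ± 0.24, edgeR adjusted p = 2.36e-09), ARAF (-1.99 ± 0.39), HRAS (-1.02 ± 0.38) and MAPK3 (-0.92 ± 0.31) were lower. HRAS lost the call without A375-BIR DMSO replicate 1 (-0.89, adjusted p = 0.112), and HRAS and MAPK3 lost theirs by DESeq2 (adjusted p = 0.292 and 0.217).

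The A375 DMSO library lay outside the range of the other 9 for 7 of 7 members, against 41.3% of all genes tested. Among the 7 are ARAF and HRAS, which were high in that library and were not tested in the fit without it. The members for which it lay below the others had transcripts of lower GC content than those for which it lay above. The 3 members below their other libraries there had a GC content of 31.0% (NRAS), 32.0% (BRAF) and 44.0% (MAP2K1) in the last 500 transcript bases, and the 4 above had 56.4% (ARAF), 62.4% (MAPK3), 63.2% (MAP2K2) and 64.4% (HRAS). Over all genes, the lowest of 10 GC bins had a median log2 change of 0.50 in the A375 response and the highest bin -0.92, and between the lines in DMSO these medians were 0.59 and -0.88. Where the A375 DMSO library did not enter, the medians were nearly level: 0.04 and -0.02 in the A375-BIR response, and 0.11 and -0.04 between the lines in dabrafenib. The part of this trend in the members' values was not tested. Set against the median of the genes nearest in GC content, a value with no test, the difference between lines in DMSO was -0.0020 for HRAS and -0.0097 for MAPK3, and it was 1.02 for BRAF, 1.08 for NRAS, -1.29 for ARAF, -1.14 for MAP2K2 and 4.93 for MAP2K1. On the same footing MAP2K2 turned to 0.37 in the A375 response. For the lines in dabrafenib the values so set were 1.15 for MAP2K1 and -1.14 for MAP2K2, close to those above.

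**Figure D4:**
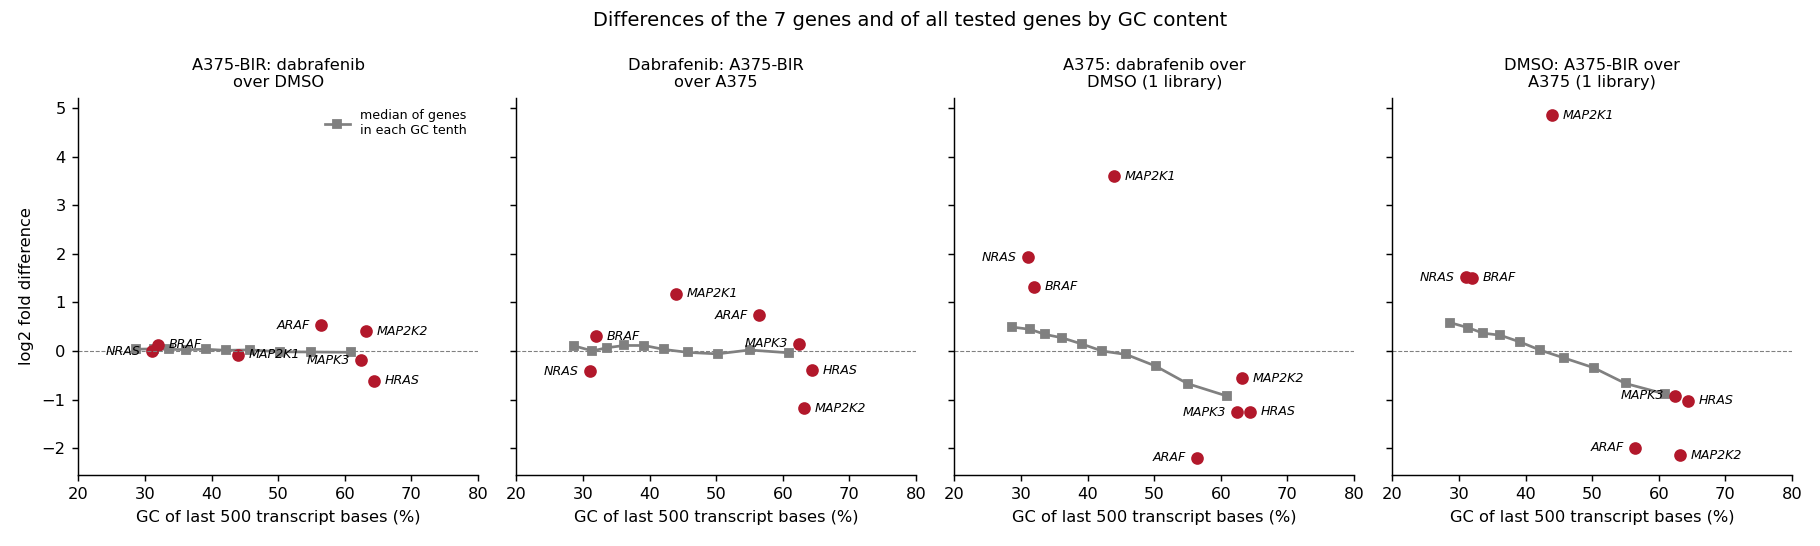
Log2 difference (y axis) against the GC content of the last 500 transcript bases in percent (x axis) for the 7 genes (red) in 4 comparisons, with the median of all tested genes in each of 10 bins of GC content (grey). The grey line falls from left to right in the 2 comparisons with the single A375 DMSO library, to -0.92 and -0.88 at its right end, and is nearly level in the others.

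The difference between the responses, A375-BIR minus A375, was called for 5 of 7 members, against 22.6% of all genes: 2 were higher (12.7% of all genes) and 3 lower (9.87%). ARAF (2.73 ± 0.67, edgeR adjusted p = 0.00301) and MAP2K2 (0.96 ± 0.34, adjusted p = 0.0363) had the more positive response in A375-BIR. BRAF (-1.20 ± 0.43, adjusted p = 0.0415), NRAS (-1.94 ± 0.52, adjusted p = 0.00663) and MAP2K1 (-3.68 ± 0.91, adjusted p = 0.00343, fitted on 2 counts in A375 DMSO) had the more negative one. HRAS (0.63 ± 0.66) and MAPK3 (1.07 ± 0.51) were not called. Leaving aside ARAF and HRAS, high in the A375 DMSO library and not tested in the fit without it, 4 of 5 were called, 1 higher and 3 lower. With no filter ARAF was called as well (2.79). This comparison holds the same A375 DMSO library as the A375 response and shares both A375-BIR groups with the response of that line, so the values are not independent of those above. The call of BRAF ended in 4 and that of MAP2K2 in 6 of the 9 fits that left out 1 library (BRAF -1.38 to -1.03, MAP2K2 0.74 to 1.17), and that of MAP2K1 ended without A375 dabrafenib replicate 2 (-2.79, adjusted p = 0.0763). By DESeq2 only MAP2K1 was called, of 5 members with an adjusted p, and NRAS (-1.89, adjusted p = 0.0654), BRAF (adjusted p = 0.169) and MAP2K2 (adjusted p = 0.140) were not.

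Values are next given for 3 relatives of the RAS members, RRAS, RRAS2 and MRAS. RRAS, linked to integrin adhesion, stood at 256, 276 and 290 CPM in A375-BIR with dabrafenib, at 214, 188 and 218 CPM in A375-BIR with DMSO, at 167, 221 and 135 CPM in A375 with dabrafenib and at 85.4 CPM in A375 with DMSO. Under the drug all A375-BIR libraries were above all A375 libraries (log2 difference 0.60 ± 0.18, edgeR adjusted p = 0.00766). Groups did not overlap for 48.2% of all genes between the lines in dabrafenib. The RRAS response in A375-BIR was not called (0.40 ± 0.17, edgeR adjusted p = 0.227). RRAS2, which encodes the RAS-like protein TC21, had 23.8, 28.0 and 20.7 CPM in A375-BIR with dabrafenib, against 8.25, 15.6 and 28.2 CPM in A375 with dabrafenib. Those groups overlap (0.74 ± 0.46, not called). MRAS, which forms a phosphatase complex with SHOC2 that activates RAF, had 17.1, 12.2 and 18.1 CPM in A375-BIR with dabrafenib and 8.47, 2.02 and 6.77 CPM in A375-BIR with DMSO. These libraries did not overlap, as was so for 17.97% of all genes in the A375-BIR response. The log2 change of 1.43 ± 0.46 was not called (edgeR adjusted p = 0.0915). In A375 with dabrafenib MRAS stood at 18.6, 20.1 and 33.8 CPM (log2 difference of A375-BIR from A375 under the drug -0.46 ± 0.43, not called). The A375 DMSO library had 27.6 CPM. With that single library the MRAS log2 difference was -2.23 ± 0.46 between the lines in DMSO and -0.34 ± 0.44 in the A375 response. The difference between responses was 1.77 ± 0.63.

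**Figure D5:**
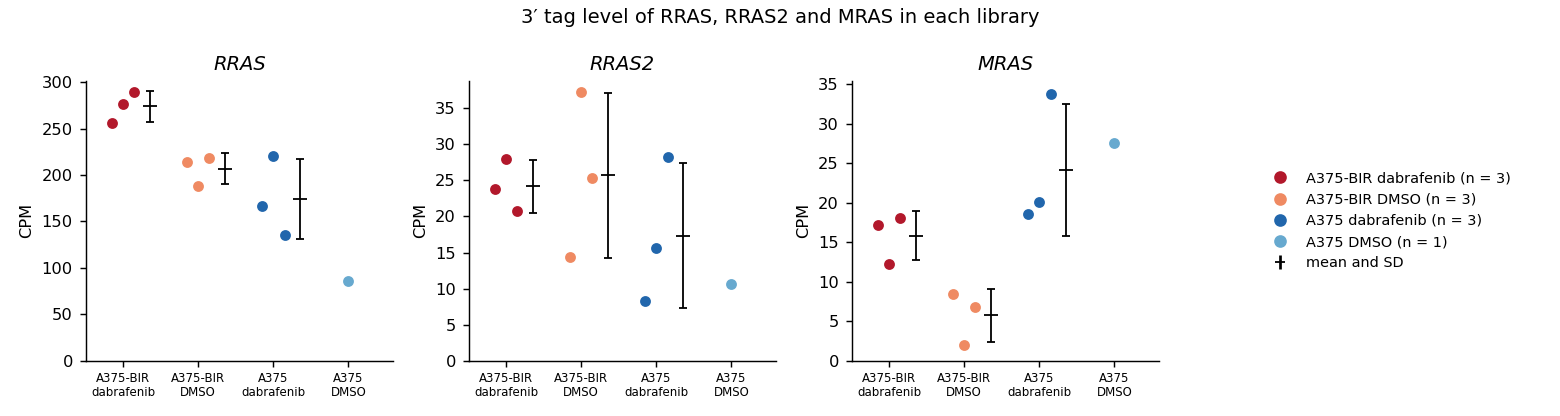
Level of RRAS, RRAS2 and MRAS in every library, in CPM on TMM-scaled totals (y axis, from 0), by group (x axis); points are libraries and bars the mean and SD of 3. RRAS is at 256 to 290 CPM in A375-BIR with dabrafenib and at or below 221 CPM elsewhere, and RRAS2 overlaps between all groups with replicates.

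Of 77 tested genes on 8 lists around the cascade, the 3 above among them, 0 were higher and 1 was lower in A375-BIR with dabrafenib than with DMSO (1.30%, against 2.46% of all genes). That gene was MAP3K3, a kinase that can act on MEK5 and other MAPK kinases, at 38.4 ± 6.503 CPM with dabrafenib and 68.2 ± 2.97 CPM with DMSO (SD, n = 3 each, log2 change -0.78 ± 0.22, edgeR adjusted p = 0.0445). Between the lines in dabrafenib 10 of the 77 were higher and 18 lower in A375-BIR (36.4%, against 42.7% of all genes). The shares of all genes against which the counts of each list stand are 22.6% higher and 20.2% lower. Of 12 adaptors and exchange factors for RAS or RAP, 0 were higher and 7 lower, with a list median of -0.71 against 0.043 for all genes. With dabrafenib RASGRP3, a RAS exchange factor, had 1.45 ± 1.32 CPM in A375-BIR, against 37.1 ± 11.1 CPM in A375 (SD, n = 3 each), and with DMSO it had 0.847 ± 1.47 CPM in A375-BIR, against 2.51 CPM in the A375 library. Also with dabrafenib, GAB2, a docking protein, had 41.8 ± 12.3 CPM in A375-BIR against 96.3 ± 10.1 CPM in A375, and GRB2, the adaptor that brings SOS to receptors, 127 ± 33.7 CPM in A375-BIR against 208 ± 9.66 CPM in A375 (SD, n = 3 each). RAPGEF2, a RAP exchange factor, differed by -1.27 ± 0.29 on the log2 scale.

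Of 11 RAS GTPase-activating proteins and inhibitors 0 were higher and 2 lower in A375-BIR under the drug, RASAL2 (-0.81 ± 0.18), which stimulates GTP hydrolysis on RAS, and LZTR1 (-1.25 ± 0.36), an adaptor for RAS degradation. Of 20 scaffolds and RAF regulators 6 were higher and 3 lower. They included CNKSR2 (2.89 ± 0.48), a scaffold, and CDC37 (0.85 ± 0.19), a co-chaperone of kinases, on the higher side, and the 14-3-3 genes YWHAH (-1.55 ± 0.23) and YWHAG (-0.73 ± 0.17) on the lower. Of 7 genes of RAS lipid processing 2 were higher, FNTA (0.96 ± 0.31), a subunit of farnesyltransferase, and LYPLA1 (0.74 ± 0.24), a depalmitoylating enzyme. On the list of 5 MAP3K genes outside the RAF family, the 3 tested were lower, MAP3K3 (-1.77 ± 0.23), MAP3K11 (-1.002 ± 0.33) and MAP3K1 (-0.78 ± 0.28). Of 12 kinases and transcription factors downstream of ERK 1 was higher, the ETS factor ELK4 (0.94 ± 0.22). Of 9 genes of other MAPK modules 3 were lower, MAPK6 (-1.14 ± 0.23), MAP2K7 (-0.87 ± 0.23) and MAP2K5 (-1.40 ± 0.50).

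In the A375 response 15 of the 77 were higher and 17 lower (41.6%, against 38.6% of all genes). For the lines in DMSO it was 15 and 19 (44.2%, against 51.8%), and in the difference between responses 13 and 7 (25.97%, against 22.6%), all with the single A375 DMSO library. Beside the members, the 9 tested genes of the ERK output list had a median of -0.36 in the A375-BIR response. Of these, 0 were higher and 1 was lower, ETV4 (11.1%, against 2.46% of all genes). Their median was 1.91 between the lines in dabrafenib, with 5 higher and 3 lower in A375-BIR (88.9%, against 42.7% of all genes). In the A375 response, which rests on the single DMSO library, their median was -2.35. CCND1, the cyclin D1 gene, had 478 ± 40.3 CPM in A375-BIR, against 40.7 ± 18.9 CPM in A375, and DUSP6, an ERK phosphatase, 138 ± 50.3 CPM in A375-BIR against 27.1 ± 6.53 CPM in A375, both with dabrafenib (SD, n = 3 each). ETV4 was higher in A375-BIR as well (log2 difference 2.83 ± 0.48). DUSP4, another ERK phosphatase gene, was lower in A375-BIR, at 117 ± 19.9 CPM against 247 ± 36.2 CPM in A375 (log2 difference -1.08 ± 0.19, edgeR adjusted p = 1.36e-05).

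The genes whose pattern over the 10 libraries was most like each member's were found by the root-mean-square difference of centred log2(CPM + 2), among 7519 genes of at least 20 CPM. The nearest to NRAS were NORAD (0.16), TEAD3 (0.19) and TMEM165 (0.19), and to HRAS RAB11FIP3 (0.17), CNPY3 (0.22) and C1orf122 (0.24). BRAF was nearest to PSMA3 (0.12), MLLT10 (0.15) and LYPLAL1 (0.17), and ARAF to EML3 (0.35), C12orf57 (0.38) and SMARCD3 (0.39). MAP2K1 had the largest differences, with BBIP1 (0.43), MARCHF5 (0.46) and MYL12A (0.47). It also had the largest root-mean-square deviation from its own mean, 1.24, against 0.74 for ARAF. The nearest to MAP2K2 were SLC26A2 (0.20), SARS1 (0.20) and ARHGEF11 (0.21), and to MAPK3 TGOLN2 (0.13), DDX27 (0.14) and SH3KBP1 (0.15). No member was among another member's 3 nearest. The likeness is a description over 10 libraries, 1 of which, A375 DMSO, stands apart for every member.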

How the data were processed

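Raw read counts per gene were used as the authors deposited them, with no normalization, 1 file per library. The genome build is hg38 per the submitters' processing notes, while aligner, annotation and strand setting were not given in the sources used here. Of 12 libraries, 10 list human genes. The 2 that list mouse genes (A375 DMSO replicates 2 and 3) were left out, so A375 DMSO, planned with 3 libraries, entered with 1 and takes its spread from the other groups. The 5 closing lines of reads given to no gene stayed out of totals and tests. The 7 symbols were matched to Ensembl identifiers in GENCODE 29, and promoters to RefSeq (7 of 7), taking the start nearest the annotated gene start.

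After filterByExpr (minimum count 10) and TMM scaling, all 4 groups entered a robust quasi-likelihood fit in edgeR 4.0.16 (R 4.3.3), which left 6 residual degrees of freedom. Calls are those with an adjusted p (Benjamini-Hochberg, over the 10236 genes tested) under 0.05. Standard errors were derived from the log2 change and the F statistic, and 95% intervals from the standard errors. CPM use TMM-scaled totals and do not correct for length. Counting intervals and limits cover counting error only. The same fit was tested on simulated data with known changes. Ratio tests were exact permutation tests.

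The members, the gene lists and the rule for named genes were chosen with earlier results of these data known. Named are all 7 members, 3 RAS relatives (3 further genes of that list are not reported here), up to 4 called genes per list with the smallest p in the A375-BIR response or between the lines in dabrafenib, and the 3 genes most like each member. Alternatives were DESeq2 1.42.0, its size factors, no filter, a mean count of at least 50, counts thinned to the smallest library, only the groups compared, a replicate block, and each library left out. Library totals without TMM and the GC comparison were added after seeing the data.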

Additional observations from a re-analysis of the deposited data

Results flagged for a closer look

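The response of A375-BIR to dabrafenib minus that of A375 passed the edgeR quasi-likelihood test for 5 of the 7 genes, against 22.6% of all genes tested. Without ARAF and HRAS, high in the A375 DMSO library and not tested in the fit without it, it was 4 of 5. On the log2 scale the difference was 2.73 for ARAF and 0.96 for MAP2K2, and -1.20 for BRAF, -1.94 for NRAS and -3.68 for MAP2K1. DESeq2 called 1 of these, MAP2K1, and fits without 1 library called 2 to 5. With no filter on low counts BRAF was not called (-1.14, adjusted p = 0.0868 by edgeR). All of them rest on the single A375 DMSO library, whose run cannot be told apart from its group, and relative to genes of like GC content the values were 1.97, -0.060, -0.83, -1.53 and -3.82.

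The labels of A375 DMSO replicates 2 and 3 state human, and their files hold 224221 and 652439 gene counts on mouse identifiers. They entered no comparison.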

How the results depend on the processing

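Of the members' log2 changes under other settings that give an adjusted p, 347 kept their direction and their side of the threshold, 38 kept the direction and lost the call, 1 gained it (MAP2K2 in the A375 response without a filter, -0.64, adjusted p = 0.04998 by edgeR) and 11 reversed. Of those without one (GC comparison, and DESeq2 where it gives none), 24 kept their direction, 13 kept it and moved by more than 1 standard error, and 4 reversed. These counts leave out members not tested under a setting. They also leave out ARAF in the difference between responses, called by edgeR and given no adjusted p by DESeq2.

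In the A375-BIR response 0 members were called in each setting with a test, though DESeq2 gave an adjusted p to only 2 of them. With a mean count of at least 50, where only MAP2K2 was tested, it was 0 in the A375 response, 1 between the lines in DMSO, 1 between the lines in dabrafenib and, for the difference of responses, 0. DESeq2 called 1 between the lines in dabrafenib and 1 in the difference, the last of 5 with an adjusted p. With counts thinned to 198690 per library, which left 3 members tested, 0 were called in the A375 response, 2 between the lines in DMSO and 0 in the difference. Leaving out 1 library gave 0 to 0 in the A375-BIR response, 5 to 6 in the A375 response, 6 to 7 between the lines in DMSO, 1 to 2 between the lines in dabrafenib and 2 to 5 in the difference.

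In the A375-BIR response, where no member was called, NRAS changed sign with DESeq2 size factors (0.0070), a replicate block (0.00019), DESeq2 (0.055) and only the groups compared (0.015), and thinning gave BRAF -0.034, MAP2K1 0.091 and MAP2K2 -0.062. Leaving out 1 library gave NRAS -0.21 to 0.28, BRAF -0.061 to 0.29 and MAP2K1 -0.40 to 0.25. Relative to genes of like GC content MAP2K2 became 0.37 in the A375 response and -0.060 in the difference, and HRAS -0.41 in the difference. With 1 library left out, the difference between the lines in dabrafenib in the NRAS to HRAS log2 ratio ran from -0.29 to 0.30. For the BRAF to ARAF log2 ratio that difference ran from -0.88 to 0.038. The cause was not tested.

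Replicate numbers did not pair the libraries: same-number correlations of deviations were -0.33 to 0.27 over 9 pairs, and 6 of 18 were best with their own number. With the replicate block 0, 6, 6, 2 and 4 members were called in the A375-BIR response, the A375 response, between lines in DMSO, between lines in dabrafenib and in the difference, with MAPK3 in DMSO (-0.87) and MAP2K2 in the difference (0.75) not called.

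Library totals without TMM moved the median of all genes to 0.26 in the A375 response, 0.41 between the lines in DMSO, 0.16 between the lines in dabrafenib and -0.24 in the difference, and the higher share of called genes to 63.3%, 69.1%, 60.5% and 34.3%, against 46.4%, 48.5%, 52.8% and 56.3% with TMM. No member changed direction. HRAS lost its call in the A375 response (-0.97) and in DMSO (-0.62), MAPK3 in DMSO (-0.52) and MAP2K2 in the difference (0.68).

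Over all genes, 252 were called in the A375-BIR response, against 108 by DESeq2, 137 with a mean count of at least 50, 125 with only the groups compared, 84 thinned and 106 to 558 with 1 library left out. In the A375 response 3948 became 2247, 1669 and 1405 by DESeq2, the mean count and thinning. Between the lines in DMSO 5298 became 3406, 1895 and 1815, and in the difference 2313 became 1062, 1133 and 624. Between the lines in dabrafenib 4374 became 1764 with the mean count and 2551 with thinning. Depth limits these genes: ARAF, HRAS, MAP2K1 and MAPK3 each had a group of 3 libraries with 10 to 19 counts in all.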
